A study of Mus musculus with 18 samples.

Results

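The Elavl, Musashi and Celf genes encode 3 families of RNA-binding proteins, and the 10 genes described here are Elavl1, Elavl2, Elavl3, Elavl4, Msi1, Msi2, Celf1, Celf2, Celf3 and Celf4. They were chosen by name, and all 10 were found among the 23228 genes of the expression table. Their levels were compared between 2 samples measured by RNA sequencing. The first was E12.5 neural tube of ICR mouse embryos carrying the 2.3Ptf1a::GFP transgene, with a genotype otherwise given as WT, from which GFP-positive cells were sorted after trypsin treatment. In this transgene a 2.3 kb autoregulatory enhancer of Ptf1a, a transcription factor of inhibitory dorsal neurons and of pancreas, drives GFP from a beta-globin basal promoter, so the sorted cells are those that held GFP made under that enhancer. The second was whole, unsorted E15.5 pancreas of WT ICR embryos. Each sample named 2 libraries, but the table held 1 value per gene and tissue, read here as the authors' pooled value, so there is no replicate, no error and no test for any difference. Tissue, stage, sorting, RNA extraction and possibly library preparation all differ between the same 2 samples and cannot be told apart.

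All 3 families bind short sequence elements in messenger RNA, often in the 3′ untranslated region, and set how stable the message is, how well it is translated or how it is spliced. Elavl proteins (Hu proteins) bind U-rich and AU-rich elements and mostly stabilize or activate their targets. Elavl1 (HuR) is made in most cells, while Elavl2 (HuB), Elavl3 (HuC) and Elavl4 (HuD) are known as proteins of neurons. Musashi proteins are translational regulators, and Msi1 is a marker of neural stem and progenitor cells. Celf proteins bind GU-rich elements and act in alternative splicing and in mRNA decay. Celf1 and Celf2 are made in many tissues, and Celf3 and Celf4 mainly in the nervous system.

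Each family split in the same way between the tissues. One or 2 genes of each were present at more alike levels in both samples, and the others were abundant in the sorted neural tube cells and low in pancreas. Levels are in FPKM, which is the number of fragments per kilobase of a transcript relative to all mapped fragments of the library. Calling a gene higher in one tissue required a gap of 4 times or more on the log2(FPKM + 1) scale and a level of 5 FPKM or more in that tissue, which is a rule of size and not a test. By this rule 6 of the 10 genes, Elavl2, Elavl3, Elavl4, Msi1, Celf3 and Celf4, were higher in neural tube, against 10.3% of the 10744 genes that reached 5 FPKM in either sample. None of the 10 (0) was called higher in pancreas, against 11.9% of the same genes. There were 5 members that reached 5 FPKM in both tissues, and 3 of them (Elavl1, Celf1 and Celf2) were similar, meaning within 2 times on that scale. Of all 7037 genes at that level in both, 68.4% were similar, so nothing particular to these 3 can be read from the call. The median difference of the 10 genes (neural tube minus pancreas) was 3.99 in log2, where the median of the 10744 genes was -0.0029. All 10 had the larger value in neural tube.

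**Figure D1:**
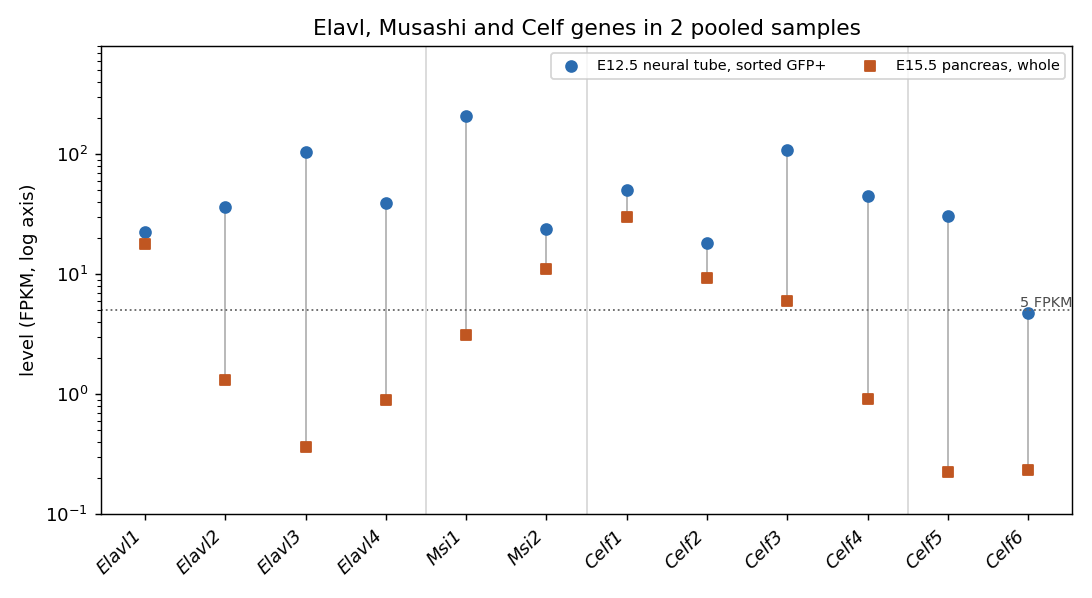
Level in FPKM (log axis) of the 10 genes, and of Celf5 and Celf6, in sorted E12.5 neural tube cells (circles) and whole E15.5 pancreas (squares), 1 pooled value each, with no error bars. The circles and squares of Elavl1, Celf1, Celf2 and Msi2 lie close together, and Elavl3 has the longest line among the 10, from 105 to 0.360 FPKM.

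Depth was estimated from genes with a single annotated transcript, taking the most common low value of FPKM times length as 1 fragment. That this value stands for 1 fragment was assumed. On a 1 kb transcript 1 fragment then corresponded to about 0.0425 FPKM in the sorted cells and 0.0240 in pancreas. This puts the depth in pancreas about 1.77 times higher. This estimate is rough: it was 1.96 times with narrower bins of the low values, a width chosen after seeing the data. A count of 3 fragments at 1 kb would give 0.128 and 0.0720 FPKM, and every value of the 10 genes was above this. Over all genes 46.4% of the calls were toward neural tube, and 66.1% after rescaling to equal totals, 57.2% after centring on housekeeping genes and 58.3% after equalizing totals without the 50 highest genes of each sample. Those 3 rescalings multiply the neural tube values by 1.54, 1.25 and 1.29. Markers from lists of known genes differed between the samples. In the sorted sample 6 of 7 inhibitory dorsal interneuron markers (Ptf1a itself was similar), 7 of 10 neural progenitor markers and all 11 neuronal markers in the table were higher. All 7 acinar markers were higher in pancreas. Of all genes 10.3% and 11.9% were called in these directions. Such differences from pancreas do not measure how pure the sorting was. Markers of mesenchyme (5 of 8), endothelium (4 of 6) and immune cells (4 of 6) were also higher in the unsorted pancreas, counts that were 5, 1 and 2 with a pseudocount of 5 FPKM. The mesenchyme marker Twist1 went the other way, at 15.8 FPKM in the sorted cells and 1.39 in pancreas. Erythroid markers were called in both directions, 2 of 5 each: the embryonic globins Hba-x, at 481 and 33.6, and Hbb-bh1, at 138 and 2.03, were higher in the sorted sample. The part of these other cells in the members' differences was not tested. The bulk values cannot tell fewer cells of a type from less RNA per cell.

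The Elavl family was dominated by a single gene in pancreas and shared by all 4 in neural tube. In pancreas Elavl1 made up 87.4% of the summed Elavl FPKM. In neural tube it made up 11.1%, and Elavl3 alone held 51.8%, with Elavl4 at 19.4% and Elavl2 at 17.7%. The summed level of the 4 genes was 203 FPKM in the sorted cells and 20.5 in pancreas, and that of Elavl2 to Elavl4 was 181 against 2.58.

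Elavl1 (chromosome 8, 4284782 to 4325100 on NCBIM37, the build also called mm9, minus strand) stood at 22.5 FPKM in the sorted cells and 17.9 in pancreas. Its difference of 0.31 in log2 was the smallest of the 10 genes. Of the 10744 genes 40.8% had a larger difference toward neural tube. It was the only member that stayed similar under all 7 rescalings and pseudocounts tried, with differences from 0.25 to 0.92. Its encoded protein, HuR, is known as a general stabilizer of AU-rich messages such as those of growth-control genes.

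Elavl3 (chromosome 9, 21819449 to 21856467, minus strand) stood at 105 FPKM in the sorted cells and 0.360 in pancreas, 293 times apart as deposited. On the log2(FPKM + 1) scale the difference was 6.29, the largest of the 10 genes. Only 49 of the 10744 genes had a larger difference toward neural tube. Relative to Elavl1 within the same sample, the Elavl3 level was 4.68 times as high in neural tube and 0.0201 times as high in pancreas. These within-sample ratios do not depend on how the samples are scaled.

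Elavl4 and Elavl2, both on chromosome 4, had intermediate levels. Elavl4 (109876327 to 110024514, minus strand), known for stabilizing messages of growing axons, stood at 39.5 FPKM in the sorted cells and 0.901 in pancreas, a log2 difference of 4.41. Elavl2 (90917454 to 91066675, minus strand) stood at 36.0 and 1.32 FPKM, a difference of 4.00. The neural tube levels of this pair differed little. In pancreas Elavl2 was the highest of the 3 neuronal genes and Elavl3 the lowest, the reverse of their places in neural tube, where Elavl3 was highest and Elavl2 lowest.

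**Figure D2:**
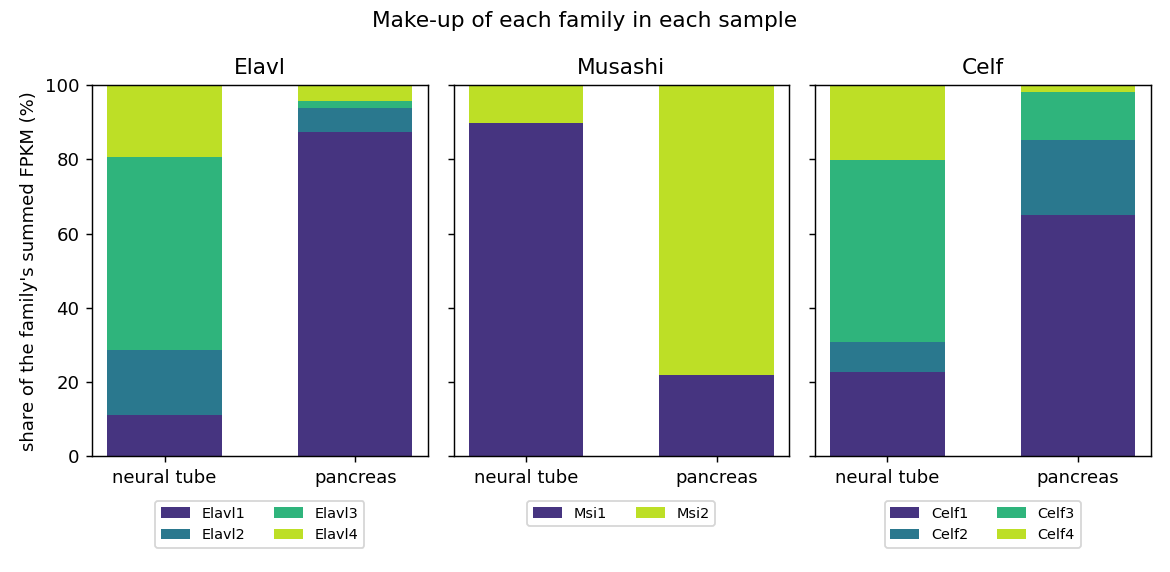
Share of each gene in the summed FPKM of its family (%), in neural tube and in pancreas. Elavl1 grows from 11.1% to 87.4%, Msi2 from 10.2% to 78.0% and Celf1 from 22.7% to 64.9% between neural tube and pancreas.

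The start regions of the one Elavl gene found at alike levels in both tissues and of the one with the largest difference are shown for comparison, each covering 250 bases before and 50 after the start site (RefSeq, GRCm38.p6, read 5′ to 3′ on the gene's strand). Elavl1 lies at chr8:4325051-4325350 and Elavl3 at chr9:22051974-22052273, both on the minus strand. Capitals mark any exact match, on either strand, to CAGCTG (a form of the E-box, the CANNTG class of site that Ptf1a and other bHLH proteins bind), TGGGAA (the core bound by Rbpj), GGACAG or CAGCACC (pieces of the RE1 element bound by the neuronal gene repressor Rest).
Elavl1: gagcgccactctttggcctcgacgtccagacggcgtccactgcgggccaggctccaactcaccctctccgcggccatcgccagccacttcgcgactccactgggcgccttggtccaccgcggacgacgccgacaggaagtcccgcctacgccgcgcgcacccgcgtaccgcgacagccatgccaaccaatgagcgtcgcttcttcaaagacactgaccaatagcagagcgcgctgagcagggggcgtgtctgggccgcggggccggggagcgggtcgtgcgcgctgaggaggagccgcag
Elavl3: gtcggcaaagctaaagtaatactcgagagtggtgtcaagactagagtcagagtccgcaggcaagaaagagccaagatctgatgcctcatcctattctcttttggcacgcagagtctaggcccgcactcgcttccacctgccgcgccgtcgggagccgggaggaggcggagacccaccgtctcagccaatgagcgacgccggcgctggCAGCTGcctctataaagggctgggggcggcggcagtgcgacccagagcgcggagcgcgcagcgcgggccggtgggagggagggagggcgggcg
Both windows are rich in CpG, with 39 CpG in Elavl1 and 29 in Elavl3, where the median of the 32851 windows in the table was 7. The Elavl3 window holds 1 CAGCTG and 2 CANNTG in all, and the Elavl1 window holds 0 of either. Of all windows 16.3% hold CAGCTG and 72.3% hold CANNTG. A match describes these letters and is not evidence of binding.

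In the Musashi pair the predominant gene differed between the tissues. Msi1 made up 89.8% of the summed Musashi FPKM in neural tube and 21.99% in pancreas, and Msi2 made up the remaining 10.2% and 78.0%. Msi1 (chromosome 5, 115879608 to 115905707, plus strand) stood at 209 FPKM in the sorted cells and 3.13 in pancreas, 66.9 times apart as deposited and 5.67 in log2(FPKM + 1). It had the highest neural tube level of the 10 genes and ranked 302 among all genes of that sample. Msi2 (chromosome 11, 88152884 to 88579827, minus strand), the more widely made paralog, also known for its part in blood stem cells, stood at 23.6 FPKM in the sorted cells and 11.1 in pancreas. Its difference of 1.03 lay just outside the 2-times limit for similar and well short of the 4-times rule. Under the alternatives it ranged from 0.83 to 1.63. Within each sample, Msi1 was at 8.85 times the level of Msi2 in neural tube and at 0.282 times in pancreas.

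The Celf family showed the same division, with Celf1 retaining the largest share in pancreas. The 4 genes summed to 224 FPKM in the sorted cells and 46.3 in pancreas, a smaller ratio (4.83) than for Elavl (9.92) or Musashi (16.4). Celf1 and Celf2 together made up 30.8% of the sum in neural tube and 85.1% in pancreas. Celf3 and Celf4 made up 69.2% and 14.9%.

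The start regions of Celf1 and Celf3 are shown as the pair from this family with alike levels and with a large difference, in the same form. For Celf3, which has several RefSeq starts, the window is the one nearest to the annotated start used for coordinates here, 365 bases from it. Celf1 lies at chr2:90940147-90940446 and Celf3 at chr3:94478216-94478515 (GRCm38.p6), both on the plus strand.
Celf1: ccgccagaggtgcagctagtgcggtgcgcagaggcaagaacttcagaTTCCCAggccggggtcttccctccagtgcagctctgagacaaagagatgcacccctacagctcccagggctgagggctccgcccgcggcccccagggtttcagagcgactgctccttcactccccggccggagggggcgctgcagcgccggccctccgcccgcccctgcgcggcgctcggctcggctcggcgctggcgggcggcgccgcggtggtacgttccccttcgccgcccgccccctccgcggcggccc
Celf3: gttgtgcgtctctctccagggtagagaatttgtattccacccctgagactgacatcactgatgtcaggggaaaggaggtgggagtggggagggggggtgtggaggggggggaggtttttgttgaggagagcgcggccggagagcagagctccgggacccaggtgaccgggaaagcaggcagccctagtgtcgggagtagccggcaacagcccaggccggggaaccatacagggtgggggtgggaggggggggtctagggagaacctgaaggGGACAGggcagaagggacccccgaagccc
The Celf1 window holds 34 CpG and 1 TGGGAA, and the Celf3 window holds 10 CpG and 1 GGACAG. Those 2 motifs stand in 25.6% and 22.2% of all windows. The motifs found for Celf3 depend on which start is used. Its next nearest windows, 496 and 536 bases from the annotated start, each hold 1 CAGCTG and 0 GGACAG. The 8 members with a RefSeq window (Msi1 and Celf4 have no entry) held CAGCTG in 2, TGGGAA in 2, GGACAG in 3 and CAGCACC in 0, taking for each gene the window nearest to its annotated start.

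Celf1 (chromosome 2, 90780539 to 90859654, plus strand), which binds GU-rich elements and promotes removal of the poly(A) tail, stood at 50.7 FPKM in the sorted cells and 30.1 in pancreas, a difference of 0.73. It had the highest pancreas level of the 10 genes. Celf2 (chromosome 2, 6460751 to 7002348, minus strand), a splicing regulator of brain, heart and muscle, stood at 18.3 and 9.33 FPKM, a difference of 0.90. It had the lowest neural tube level of the 10. The ratio of Celf1 to Celf2 was alike in the samples, at 2.77 in neural tube and 3.22 in pancreas. Celf1 and Celf2 were no longer similar after equal totals, centring on housekeeping genes or equal totals without the highest genes, where their differences reached 1.35 and 1.499, still below the 4-times rule.

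Celf3 (chromosome 3, 94282753 to 94296115, plus strand) stood at 109 FPKM in neural tube, close to Elavl3, and at 5.99 in pancreas. Its difference was 3.98. It was the only 1 of the 6 genes called higher in neural tube that reached 5 FPKM in pancreas. Celf4 (chromosome 18, 25636133 to 25912484, minus strand), known for regulating synaptic messages and excitability in the brain, stood at 45.2 FPKM in the sorted cells and 0.913 in pancreas, a difference of 4.59. Celf4 was at 0.413 times the level of Celf3 in neural tube and at 0.153 times in pancreas.

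The other 2 Celf genes, which are not among the 10, sat with Celf3 and Celf4. Celf5 was at 30.5 FPKM in the sorted cells and 0.224 in pancreas and was called higher in neural tube. Celf6 was at 4.72 and 0.234, below the 5 FPKM minimum in both samples. With both added, Celf3 held 42.3% and Celf1 19.6% of the Celf sum in neural tube, and Celf1 held 64.3% in pancreas.

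In order of level in neural tube the 10 genes ran Msi1, Celf3, Elavl3, Celf1, Celf4, Elavl4, Elavl2, Msi2, Elavl1 and Celf2. In pancreas the order was Celf1, Elavl1, Msi2, Celf2, Celf3, Msi1, Elavl2, Celf4, Elavl4 and Elavl3. Without replicate values no pair of neighbours can be said to differ beyond its spread. Celf3 at 109 and Elavl3 at 105 FPKM in neural tube, and Celf4 at 0.913 and Elavl4 at 0.901 in pancreas, were the closest pair in each tissue by ratio. The 6 genes called higher in neural tube held the last 6 of these pancreas places. The call used the same pancreas values, so this is not a separate result.

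**Figure D3:**
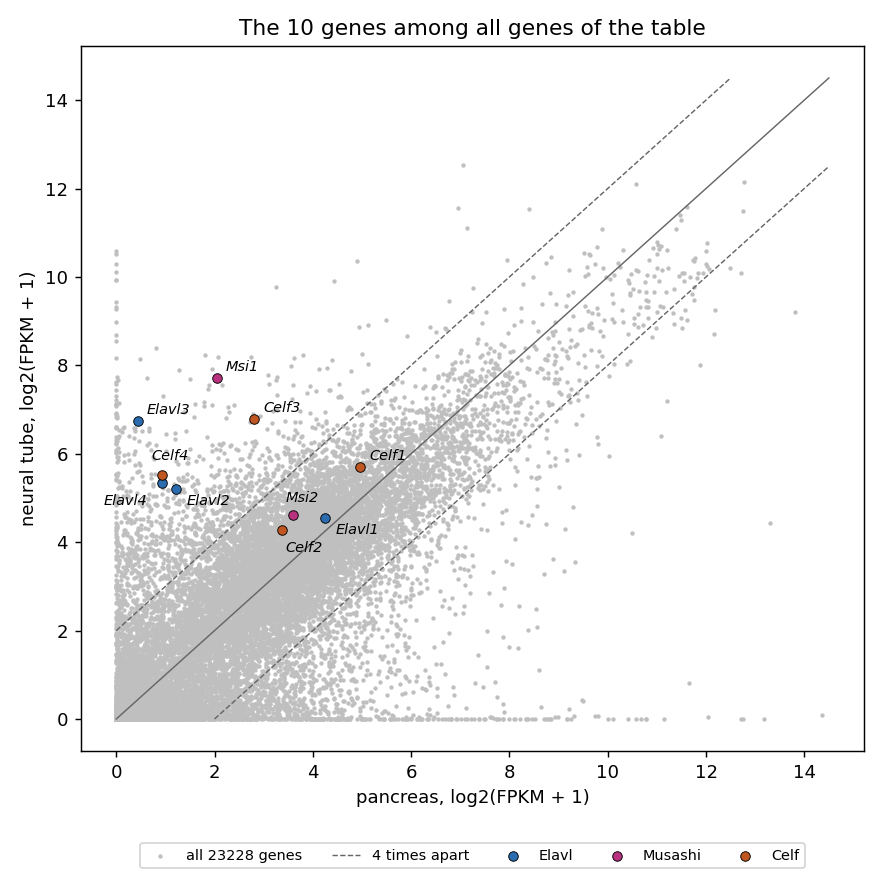
Level of every gene as log2(FPKM + 1) in pancreas (x) and neural tube (y), 1 point per gene, with the 10 genes in colour. The solid line marks equal levels and the dashed lines a 4-times difference; Elavl2, Elavl3, Elavl4, Msi1, Celf3 and Celf4 lie above the upper dashed line, and the other 4 lie between the solid and the upper dashed line.

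The genes nearest to 3 of the members in both samples at once were taken by distance on the log2(FPKM + 1) scale, a likeness that rests on 2 values only. Among the nearest to Elavl3 were Igdcc3 at 95.3 FPKM in the sorted cells and 0.288 in pancreas, and Lhx1, a transcription factor of inhibitory interneurons, at 91.1 and 0.309. Nearest to Msi1 were the non-coding RNA host gene Snhg9 at 187 and 3.45, Rtn1, a reticulon of neuroendocrine tissue, at 242 and 2.85, and Nsg2, a neuronal vesicle protein, at 186 and 2.67. Nearest to Celf2 were Ctnnbip1, an inhibitor of beta-catenin, at 18.5 and 9.25, the gene model 2810408M09Rik at 17.96 and 9.30, and the vesicle tethering gene Vps33a at 18.1 and 9.07.

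The 6 genes called higher in neural tube were set beside markers of neurons and of neural progenitors, the latter because Msi1 is itself a progenitor marker. The 11 neuronal markers in the table summed to 1605 FPKM in the sorted cells and 51.5 in pancreas, and 0 of them was listed at 0 in either sample. In pancreas, the 6 genes kept from 0.342% (Elavl3) to 5.47% (Celf3) of their neural tube level, with a median of 2.15%. The rule that called these 6 used the same 2 values of each gene. A low share was therefore required of them and is not a separate result. The 11 neuronal markers kept from 0.266% (Ina) to 21.2% (Gap43), with a median of 2.58%. Tubb3, the neuronal tubulin, kept 0.980%, Dcx 1.77% and Rbfox3, the antigen NeuN, 1.77%. The 10 progenitor markers summed to 1056 FPKM in neural tube and 324 in pancreas, with 0 listed at 0, and their retained shares spread more widely: Pax3 kept 0.0421%, Sox2 0.0871%, Fabp7 7.85% and Nes 15.4%, while Vim, Sox9 and Pax6, which pancreas also expresses, kept 57.3%, 59.3% and 69.8%. Of the other 4 members, Elavl1 kept 79.6%, Celf1 59.4%, Celf2 51.1% and Msi2 46.9%.

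Markers of other cells that a whole pancreas holds were measured beside the low pancreas values. The 10 neural crest, Schwann and enteric neuron markers summed to 24.6 FPKM in the sorted cells and 32.1 in pancreas, and 0 of them was listed at 0. Only 3 of the 10 reached 5 FPKM in a sample. Of these 3, 1 was called higher in neural tube and 2 in pancreas (Ret at 13.0 and S100b at 6.25 FPKM). Over all genes the shares were 10.3% and 11.9%. With a pseudocount of 5 FPKM 0 of them was called in either direction, and the Ret call was also lost with housekeeping centring, with equal totals and with equal totals without the 50 highest genes. The 10 endocrine markers summed to 72.8 FPKM in the sorted cells and 2430 in pancreas. Of the 8 that reached 5 FPKM in a sample, 4 were called higher in pancreas, beside 11.9% of all genes. Ins1 and Ins2 were listed at 0 in neural tube. Several endocrine markers are also made in neurons, and these went in both directions: Insm1 was at 24.6 FPKM in the sorted cells against 6.19 and Neurod1 at 11.95 against 6.63, while Chga was at 15.4 against 56.3, Chgb at 17.7 against 43.3 and Isl1 at 2.67 against 16.5. The part of either cell type in the pancreas values of Celf3, Msi1 and the neuronal Elavl genes was not tested.

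**Figure D4:**
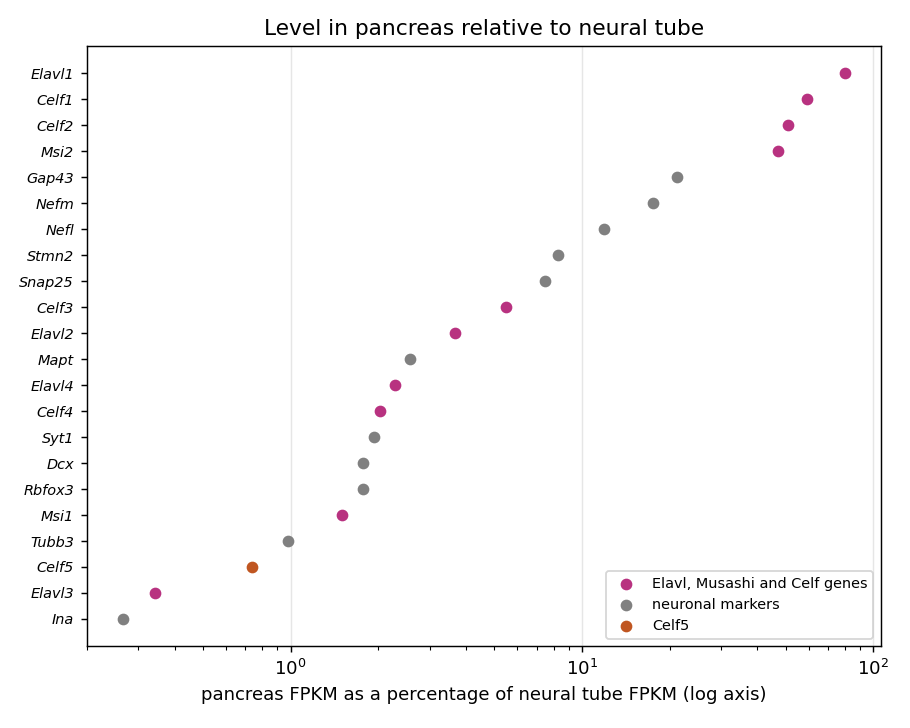
Pancreas FPKM as a percentage of neural tube FPKM (log axis) for the 10 genes, Celf5 and the 11 neuronal markers, in order. Elavl1, Celf1, Celf2 and Msi2 lie between 46.9% and 79.6%, above every neuronal marker, and the other 6 members lie among the neuronal markers. Those 6 were called higher in neural tube from these same values, which required a low percentage.

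Other regulators of mRNA fate were set beside the 3 families from lists of known genes. Among 12 other proteins that bind AU-rich or related elements, 1 was called toward neural tube, 0 toward pancreas and 7 as similar, with a median difference of 0.62. All 12 reached 5 FPKM in a sample and 11 in both, so 1 of 12 and 7 of 11 stand beside the 10.3% and 68.4% of all genes and are near them. Toward neural tube the calls ranged from 0 with a threshold of 8 times to 3 with equal totals or with a threshold of 2 times. The threshold of 2 times also called 2 toward pancreas. The gene called as deposited was Hnrnpa0, at 406 FPKM in the sorted cells and 59.6 in pancreas. Ybx1, the most abundant of the list, was similar at 426 and 252. Of the Zfp36 decay factors, which destabilize AU-rich messages, Zfp36 itself (tristetraprolin) was at 1.93 and 8.98 FPKM, Zfp36l2 at 8.62 and 24.7, neither past the rule of size, and Zfp36l1 at 49.5 and 49.2. Among 25 other translation and mRNA fate regulators the calls were 3 toward neural tube, 0 toward pancreas and 10 similar, with a median of 0.82. Of the 25, 19 reached 5 FPKM in a sample and 15 in both, so the shares to set beside those of all genes are 3 of 19 and 10 of 15, the latter near 68.4%. The calls toward neural tube ranged from 0 with a threshold of 8 times to 6 with a threshold of 2 times. The 3 called genes were Igf2bp1, a zipcode-binding protein, at 39.2 and 4.39 FPKM, Lin28a, a blocker of let-7 maturation, at 5.36 and 0.125, and Cpeb4 at 11.6 and 1.95. The calls of Lin28a and Cpeb4 were lost with a pseudocount of 5 FPKM, and Caprin1, the highest gene of that list, was similar at 153 and 86.4.

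The Mbnl genes differed in the direction opposite to the Celf genes. Mbnl proteins are known to act against Celf proteins in many alternative splicing choices. Mbnl1 was at 3.58 FPKM in the sorted cells and 21.9 in pancreas. Mbnl2 was at 2.22 and 28.4, and Mbnl3 at 0.355 and 7.41. Of the 4 Celf members, Celf3 and Celf4 were called higher in neural tube and Celf1 and Celf2 were similar. That 0 of the 4 was called higher in pancreas is near the 11.9% of all genes. All 3 Mbnl genes were called higher in pancreas, with differences of -2.32, -3.19 and -2.63. The direction held under all 7 rescalings and pseudocounts, which could not reverse differences of this size: the largest shift was 0.63 in log2. The call of Mbnl1 was lost with equal totals and with a pseudocount of 5 FPKM. The call of Mbnl3 was lost with that pseudocount and with a minimum of 10 FPKM. With a threshold of 8 times only Mbnl2 was called. Summed, the 3 Mbnl genes were at 6.15 FPKM in neural tube against 224 for the 4 Celf genes, and at 57.7 in pancreas against 46.3.

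Deadenylation and poly(A)-binding genes, the shared machinery through which Celf1 and Musashi proteins act, were mostly alike in the samples. Their list also held Eif4e, Eif4g1, Dcp1a, Dcp2 and Xrn1, genes of translation initiation, decapping or decay. The table held 27 genes of this list, of which 23 were similar and 0 were higher in neural tube. Another 1, the antiproliferative adaptor Tob1, was higher in pancreas at 57.1 FPKM against 9.58, a call lost with equal totals. Of the 26 genes that reached 5 FPKM in both samples 23 were similar, beside 68.4% of all genes. Pabpc1, the main cytoplasmic poly(A)-binding protein, was at 230.3 FPKM in the sorted cells and 254 in pancreas.

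**Figure D5:**
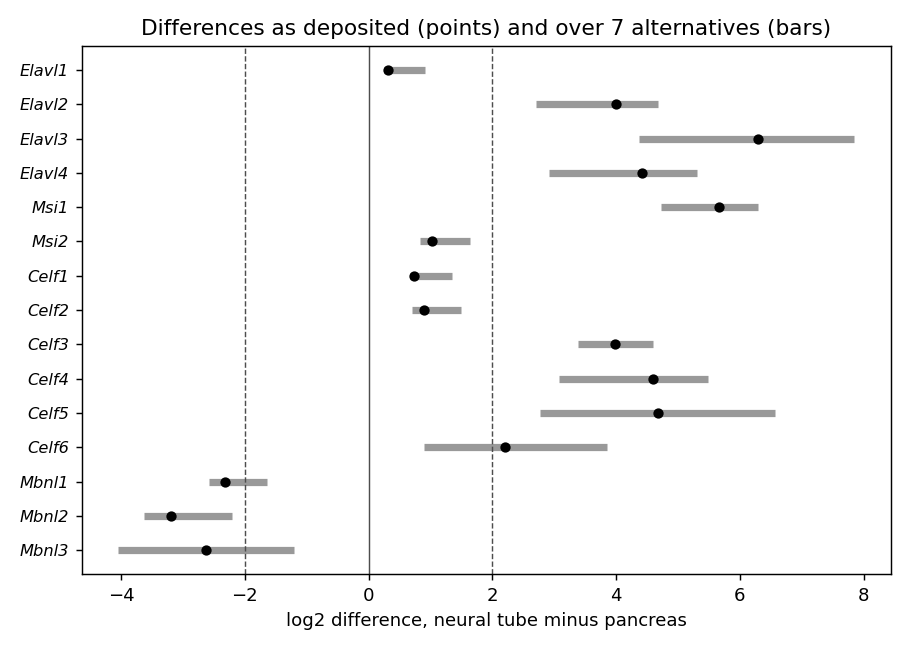
Difference in log2 (neural tube minus pancreas) of the 10 genes, Celf5, Celf6 and the 3 Mbnl genes, as deposited (points) and its range over 7 pseudocounts and rescalings (bars); dashed lines mark the 4-times rule. The bars of the 6 genes called higher in neural tube stay right of the upper dashed line, the lowest value being 2.70 for Elavl2, and those of Mbnl1 to Mbnl3 stay left of 0.

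Messages known as targets of these proteins were measured in the same samples, from a list of 15. Of these 4 were higher in neural tube (Robo3, Mapt, Nova1 and Gap43), 1 in pancreas (Cdkn1a) and 5 similar, with a median of 0.53. Of the 15, 13 reached 5 FPKM in a sample and 8 in both. The shares are thus 4 of 13, 1 of 13 and 5 of 8, beside 10.3%, 11.9% and 68.4% of all genes. The last 2 are near those of all genes. Robo3, an axon guidance receptor whose translation Msi1 is known to regulate, was at 201 FPKM in the sorted cells and 0.0260 in pancreas, the latter below the level of 3 fragments at 1 kb. Gap43, a growth cone protein whose message Elavl4 stabilizes, was at 67.1 and 14.2. Its call was lost with a pseudocount of 5 FPKM, as were those of Nova1, at 18.7 and 1.09, and Cdkn1a. Mapt (tau) was at 53.3 and 1.37. Numb, the Notch inhibitor whose translation Msi1 represses, was similar at 9.40 and 7.71. Cdkn1a, the cell cycle inhibitor p21 and another described Msi1 target, was at 3.44 FPKM in the sorted cells and 26.4 in pancreas. Gap43 and Mapt are also among the neuronal markers above.

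Numb, Cdkn1a and Gap43 are shown with a stretch of their 3′ untranslated region, because they are described targets of Musashi (Numb and Cdkn1a) and Elavl (Gap43) proteins measured here. All 3 hold a word searched for that family, and the word shown differs between genes: the Cdkn1a region holds 0 GTAGT. Robo3, also described as regulated by Msi1, is not shown. Its region of 343 bases holds 0 of the Musashi and 0 of the Elavl words searched. Each stretch holds the first match to the word named for it, and the Gap43 region also holds an ATTTA nearer to its start; no Celf target is shown. Each lies in an annotated 3′ untranslated region (NCBIM37, GENCODE M1), is read 5′ to 3′ on the gene's strand as DNA, and has the word in capitals: GTAGT in Numb at chr12:85136757-85136777 (minus strand) and ATTAGT in Cdkn1a at chr17:29236549-29236570 (plus strand) for Musashi, and TTTNTTT in Gap43 at chr16:42248919-42248941 (minus strand) for Elavl.
Numb: atgtgcctGTAGTgggcatca
Cdkn1a: aaacctaaATTAGTaggacggt
Gap43: cttaaacaTTTGTTTcttggtgt
Such words are common. Of 17466 annotated 3′ untranslated regions of at least 100 bases, 44.3% hold GTAGT, 19.0% hold ATTAGT and 64.8% hold TTTNTTT, searched on the transcribed strand. The Numb region of 3046 bases holds 5 GTAGT, the Cdkn1a region of 1329 bases 1 ATTAGT, and the Gap43 region of 587 bases 2 TTTNTTT. A match is not evidence that the protein binds there.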

How the data were processed

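The deposited table gave FPKM as the authors computed it, 1 value per gene for each of the 2 RNA samples of an 18-sample series; the other 16 samples, of chromatin, are not analysed here. Per the submitters' processing notes the tools were CASAVA, TopHat, TopHat2 2.0.4 and Cuffdiff 2.0.2 on mm9, with no role given; the annotation used and any filters: not given in the sources used here. Sorted-cell RNA was column-purified and pancreas RNA was isolated with Trizol, and 2 Illumina mRNA preparations are named, per the labels' protocols. FPKM depends on the transcript length assumed and on what abundant genes take of the total.

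Differences were log2(FPKM + 1), neural tube minus pancreas, computed with pandas 2.3.3 and numpy 2.4.6; this scale understates differences of low genes. The rules of size were 4 times with 5 FPKM, and within 2 times for similar. List medians used genes that reached 1 FPKM in at least 1 of the tissues. Coordinates come from GENCODE M1 on NCBIM37. Exons of the 10 genes overlapped those of another gene in 1 case, 1.60% of Celf2. The members, gene lists and rules were chosen with earlier results of these data known. Named were all 10 members, Celf5 and Celf6, in every other list the genes called (the 2 largest where over 4 were) and the most abundant, and the 3 genes nearest to Elavl3, Msi1 and Celf2, of which 1 is not reported here. Other genes named with values (Zfp36, Zfp36l1, Zfp36l2, Numb, Insm1, Neurod1, Chga, Chgb, Dcx, Rbfox3, Pax3, Pax6, Nes, Fabp7, Sox9, Twist1, Hba-x and Hbb-bh1) were chosen after their values were seen, and marker genes that the rule names are given as counts. Of the listed genes, Map2, Cnot9 and Cnot11 did not match a symbol in the table. Alternatives were 2 pseudocounts, 5 rescalings, 2 minimums and 2 thresholds.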

Additional observations from a re-analysis of the deposited data

How the results depend on the processing

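The 6 genes called higher in neural tube stayed called under all 11 alternatives (2 pseudocounts, 5 rescalings, 2 minimums and 2 thresholds), and 0 members were called higher in pancreas under any of them. With a threshold of 2 times, Msi2 joined them, making 7. No member changed the sign of its difference in 70 recomputed values, but these settings could not have changed one. A pseudocount cannot change a sign. The rescalings that lower neural tube shift log2 ratios by only -0.027 and -0.066, where the smallest member difference was 0.31. The number of similar members was 3 as deposited and 1 with equal totals, with housekeeping centring and with equal totals without the 50 highest genes of each sample; it was 4 with a pseudocount of 5 FPKM and with equal upper quartiles, and 2 with a minimum of 10 FPKM. That count was added after seeing the data. Equal totals, housekeeping centring and equal totals without the 50 highest genes shift all log2 ratios by 0.63, 0.32 and 0.36. Over all genes the calls toward neural tube and pancreas, 1106 and 1278 as deposited, were 512 and 600 with a pseudocount of 5 FPKM, 2494 and 2690 with a threshold of 2 times, 546 and 653 with a threshold of 8 times, and 1909 and 977 with equal totals. The settings themselves move these counts. The threshold does so at 2 and 8 times, and the pseudocount of 5 FPKM shrinks every log2 difference. Equal totals multiplies every neural tube value by 1.54. Why the deposited totals differ was not tested. No paired analysis was possible because each group has 1 pooled value. Leaving out a replicate could not be run for the same reason. Depth limits the lowest values most: at 1 kb, 5 FPKM corresponds to about 118 fragments in neural tube and 208 in pancreas.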

Other observations

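The 10 messages were also described by their own longest annotated 3′ untranslated regions (GENCODE M1), which the choice of genes did not use. These were long: from 1070 bases for Celf3 to 7381 for Celf2, against a median of 1026 over 17466 genes. The 6 genes called higher in neural tube had a median of 2300.5 bases and the other 4 members a median of 5721. Over all genes called higher in neural tube the median was 1559.5 bases (946 genes), over those called higher in pancreas 887 (1057 genes) and over similar genes 1188 (4499 genes).

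Words that Elavl proteins are known to bind were dense in several of these messages. The words TTTNTTT and ATTTA, counted with overlaps on the transcribed strand, came to 17.7 per kilobase in Msi2, 17.4 in Msi1, 14.9 in Elavl1, 11.3 in Elavl2 and 10.3 in Elavl4, against a median of 3.36 over all genes. Elavl3, at 4.00, was the lowest of the 10. Musashi words (G or A, 1 to 3 T, then AGT) ranged from 0 per kilobase in Celf3 to 2.83 in Elavl2, against a median of 1.30. The Celf word TGTTTG ranged from 0 in Elavl3 and Celf3 to 2.30 per kilobase in Elavl4, against a median of 0. T made up 21.6% of the Elavl3 region and 36.3% of that of Elavl2, against a median of 28.7%. The Elavl-word counts did not simply rank by T content. The Msi1 region, with 17.4 of these words per kilobase, was 26.9% T. The part of base composition in such counts was not tested. ATTTAGT contains ATTTA, so these sets overlap. These are descriptions of annotated sequence.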
